A study of Homo sapiens with 8 samples.

Results

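PRTFDC1 and RFK are a pair of genes, 2 of the 17076 listed, that were picked by name because both lay far below their control after UPF1 depletion in Huh7 cells. Huh7 is an established human hepatocellular carcinoma line. Libraries of stranded mRNA were sequenced in 4 groups of 2. Cells given a scrambled siRNA (siControl) were set against cells given UPF1 siRNA (siUPF1). Cells given the MYC tag vector (MYC) were set against cells given a vector for MYC-tagged UPF1 (MYC-UPF1). All cells were transfected, and no untransfected library was analysed here. UPF1 is an RNA helicase that is needed for nonsense-mediated mRNA decay (NMD). The depletion libraries chose both genes, so their values there are given as a description with no test, while the MYC and MYC-UPF1 libraries did not enter the choice and are tested.

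PRTFDC1 encodes a protein related to HPRT1, the salvage enzyme that joins hypoxanthine or guanine to phosphoribosyl pyrophosphate (PRPP) and so returns free purine bases to the nucleotide pool. PRTFDC1 itself is known for much weaker activity of that kind. APRT does the same for adenine. RFK encodes riboflavin kinase, which turns riboflavin (vitamin B2) into flavin mononucleotide (FMN), and FLAD1 encodes the next enzyme, which makes flavin adenine dinucleotide (FAD). FMN and FAD are the cofactors of dehydrogenases, oxidases and reductases, many of which work in fatty acid oxidation and the respiratory chain of liver cells. HPRT1 and APRT serve here as the comparison for purine salvage and FLAD1 as the comparison for flavin synthesis.

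To show how far PRTFDC1 and HPRT1 have diverged, the stretch of coding sequence that encodes the PRPP-binding loop is given for both, with the bases that differ in capitals. It covers coding bases 397 to 426 of HPRT1 and 418 to 447 of PRTFDC1, counted from the A of the start codon in GENCODE transcripts on GRCh37.
HPRT1: gtGgaAgatAtAAtTgACactggCaAAacA
PRTFDC1: gtTgaGgatGtTGtCgGAactggGaGGacC
In this stretch 12 of 30 bases differ. The changes from HPRT1 to PRTFDC1 at HPRT1 coding positions A413G and C414A fall in the codon for an aspartate that takes part in HPRT1 catalysis. Over the whole coding sequence 440 of 653 aligned bases (67.4%) were identical, and the longest identical run was 14 bases. No transcript of another gene matched PRTFDC1, RFK, HPRT1, APRT or FLAD1 over at least 100 bases at 95% identity or more, so reads of these genes had no near-identical annotated copy to be shared with.

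PRTFDC1 (chromosome 10, 25137543 to 25241535 on the minus strand of GRCh37, the build also called hg19) was detected in every library. Values are FPKM, in which read fragments are scaled for transcript length and for the size of the library, so levels can be compared between genes per length. PRTFDC1 was at 8.18 and 9.76 FPKM in the siControl libraries and at 3.20 and 3.24 FPKM in the siUPF1 libraries. Both siUPF1 libraries were far below both controls and nearly equal to each other. The mean went from 8.97 ± 1.11 to 3.22 ± 0.0244 FPKM (SD, n = 2), or to 35.9% of the siControl level. On the log2(FPKM + 1) scale, which understates changes of low values, the difference was -1.24, the second lowest of 13535 genes. With the plasmids, PRTFDC1 reached 6.96 and 6.44 FPKM in the MYC libraries, and 7.28 and 7.49 FPKM in the MYC-UPF1 libraries. From high to low, the groups were siControl, MYC-UPF1, MYC and siUPF1, and no 2 neighbours in this order overlapped. Of all genes tested, 20.7% did not overlap between MYC-UPF1 and MYC, and 56% did not between siUPF1 and siControl. No such share was computed for steps between siRNA and plasmid cells. The step from MYC down to siUPF1 (3.48 FPKM) was larger than that from siControl down to MYC-UPF1 (1.59 FPKM) or from MYC-UPF1 down to MYC (0.689 FPKM).

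RFK (chromosome 9, 79000442 to 79009433, minus strand) was at 18.1 and 19.4 FPKM in siControl and at 10.5 and 6.59 FPKM in siUPF1. Both siUPF1 libraries were below both controls, but they differed from each other far more than those of PRTFDC1. The mean went from 18.7 ± 0.891 to 8.55 ± 2.76 FPKM (SD, n = 2), or to 45.6% of the siControl level, a difference of -1.08 on the log2 scale. This ranked 4th from the bottom of the 13535 genes. Leaving out siUPF1 replicate 1 gave -1.38, and leaving out siUPF1 replicate 2 gave -0.78. With the plasmids, RFK reached 7.29 and 7.21 FPKM in the MYC libraries, and 6.76 and 9.12 FPKM in the MYC-UPF1 libraries. The siControl libraries thus stood alone, and the siUPF1, MYC-UPF1 and MYC libraries overlapped in that order of their means. The siControl mean was 2.58-fold that of MYC and the siUPF1 mean 1.18-fold that of MYC. On the log2 scale the siControl level lay 1.26 above MYC, where the median over 13625 genes was 0.058, and 0.257% of those genes lay further above. For PRTFDC1 the pattern was different. Its siControl mean was 1.34-fold that of MYC, with 11.9% of genes further above, and its siUPF1 mean was 0.481-fold that of MYC. The siRNA and plasmid cells were not compared by any test here, and transfection type and any difference in handling cannot be told apart between them. The siControl and siUPF1 values also entered the choice of both genes, so these folds and shares are a description only.

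Among the comparison genes, HPRT1 (chromosome X, 133594195 to 133654543, plus strand) was also lower after depletion. It was at 13.1 FPKM in both siControl libraries and at 9.19 and 6.65 FPKM in the siUPF1 libraries, so the groups did not overlap and replicate 2 was the lower of the siUPF1 pair. Of all genes tested after depletion, 56% did not overlap between the groups, and 18.5% were lower in this way. The log2 fold change of HPRT1 was -0.68 with a standard error of 0.141, which passed an unadjusted p of 0.05 in limma but not an adjusted one (adjusted p = 0.0835, Benjamini-Hochberg over 13535 genes). At the unadjusted threshold 21.5% of genes passed and 5.51% were lower, and at the adjusted one 0.0369% passed. HPRT1 did pass the adjusted threshold under 5 of 14 alternatives, with limma adjusted p from 6.77e-10 to 0.198 over all of them. These were a mean FPKM of at least 5 (adjusted p = 0.0278), all 8 libraries in 1 fit (0.0371), the GC and length trend removed (0.0343), and either siUPF1 library left out. Without siUPF1 replicate 1 the log2 fold change was -0.88 and 4539 of all genes passed the adjusted threshold, and without siUPF1 replicate 2 these were -0.47 and 1240, against 5 genes with all libraries. HPRT1 was chosen as a comparison with earlier results of these data known. APRT (chromosome 16, 88875747 to 88878345, minus strand), the most abundant of the 5, was at 171 and 177 FPKM in siControl and at 177 and 183 FPKM in siUPF1, and these overlapped. Its log2 fold change was 0.048 with a 95% interval from -0.17 to 0.26 (limma adjusted p = 0.775). FLAD1 (chromosome 1, 154955814 to 154965587, plus strand) was at 32.9 and 32.1 FPKM in siControl and at 34.5 and 35.6 FPKM in siUPF1. Both siUPF1 libraries were just above the controls, as they were for 37.5% of genes tested, and the log2 fold change of 0.11, with a 95% interval from -0.10 to 0.31, passed neither threshold (limma adjusted p = 0.502). Once the dependence on GC content and length was taken out of each library, APRT had a log2 fold change of -0.17 and FLAD1 one of -0.041, so neither held its sign.

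The p-values measure the spread between 2 libraries a group, and no source used here says whether these came from separate cultures. The smallest two-sided p of an exact permutation test is 0.333 for 2 libraries against 2, and limma reaches lower ones by borrowing the variance of other genes. In the samples as sequenced, fewer expressing cells and less RNA per cell cannot be told apart. UPF1 itself was at 44.5 and 47.4 FPKM in siControl and at 20.7 and 21.9 FPKM in siUPF1, and at 45.1 and 57.4 FPKM in MYC and at 2835 and 2484 FPKM in MYC-UPF1, as the labels say. All 8 liver markers examined were present, with AFP between 11093 and 12505 FPKM, and of 6 markers of blood, fibroblast and endothelial cells 3 were listed, with a sum of at most 4.99 FPKM. Across genes, MYC replicate 1 correlated better with MYC-UPF1 replicate 2 (0.9978) than with MYC replicate 2 (0.9961), so the overexpression libraries did not group by treatment. In the depletion set, siUPF1 replicate 1 correlated better with siControl replicate 2 (0.9953) than with siUPF1 replicate 2 (0.9942). The depletion libraries therefore did not fully group by treatment either. Depth is unknown, since FPKM holds no read number.

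Overexpression of UPF1 was then tested for both genes. PRTFDC1 went from 6.70 ± 0.369 FPKM in MYC to 7.39 ± 0.145 FPKM in MYC-UPF1 (SD, n = 2). Both MYC-UPF1 libraries were above both controls, which held for 8.88% of the 13251 genes tested. The log2 fold change of PRTFDC1 was 0.12 with a standard error of 0.116 and a 95% interval from -0.14 to 0.38, and it passed neither threshold (limma adjusted p = 1.00). It was 0.076 without MYC replicate 2 and 0.17 without MYC replicate 1. RFK went from 7.25 ± 0.0506 to 7.94 ± 1.67 FPKM (SD, n = 2), and the groups overlapped, because the MYC-UPF1 libraries lay on both sides of the MYC libraries. Its log2 fold change was 0.10 with a standard error of 0.142 and a 95% interval from -0.22 to 0.42, and it passed neither threshold (limma adjusted p = 1.00). The sign rested on 1 library: without MYC-UPF1 replicate 2 the value was -0.088 and without MYC-UPF1 replicate 1 it was 0.30. HPRT1 (0.062, 95% interval from -0.20 to 0.32), APRT (-0.087, from -0.27 to 0.093) and FLAD1 (-0.055, from -0.26 to 0.15) had adjusted p-values of 1.00 in limma, and the sign of HPRT1 changed without MYC replicate 2 (-0.0052) or MYC-UPF1 replicate 2 (-0.022). FLAD1 was lower without overlap by a very narrow margin, at 32.885 and 35.5 FPKM in MYC and at 32.853 and 32.818 FPKM in MYC-UPF1. Of all genes, 11.8% were lower without overlap here and 20.7% did not overlap in either direction. In this comparison 1.43% of all genes passed an unadjusted p of 0.05 and 0.00755% an adjusted one.

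Ratios within a library do not depend on how libraries were scaled against each other. They can still carry differences between libraries that follow GC content, which was 37.4% for RFK and 56.2% for FLAD1. The ratio of PRTFDC1 to HPRT1 was 0.627 and 0.742 in siControl and 0.349 and 0.487 in siUPF1. In MYC it was 0.628 and 0.643 and in MYC-UPF1 0.703 and 0.636, and the siUPF1 libraries were the lowest of the 8. HPRT1 was itself lower there. The ratio of RFK to FLAD1 was 0.550 and 0.602 in siControl and 0.304 and 0.185 in siUPF1. It was 0.222 and 0.203 in MYC and 0.206 and 0.278 in MYC-UPF1, and the siControl libraries were the highest of the 8. PRTFDC1 and RFK were chosen for low siUPF1 values against siControl. The differences of these ratios between siUPF1 and siControl were therefore given in part by the choice. Between the pair, RFK exceeded PRTFDC1 in all 4 siRNA libraries, with a ratio of PRTFDC1 to RFK from 0.305 to 0.504. In the plasmid libraries they were close, with a ratio from 0.821 to 1.08.

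In the mRNA of both genes most bases lie after the stop codon, and G and C are less frequent than in most genes. The transcript of PRTFDC1 has 1939 bases in 9 exons, of which 675 are coding, and 1230 lie after the stop codon. That of RFK has 2596 bases in 4 exons, with 465 coding bases and 1873 after the stop codon. The GC content was 38.8% for PRTFDC1, 37.4% for RFK and 40.4% for HPRT1, but 63.2% for APRT and 56.2% for FLAD1, against a median of 47.9% over 11490 protein-coding genes tested. GENCODE lists no transcript of PRTFDC1 (3 in all) or RFK (6 in all) as a target of NMD, and 48.4% of those protein-coding genes have at least 1 such transcript. GC content is a property that moved with the fold changes of all genes, with a Spearman correlation of 0.562 across 12549 genes after depletion and -0.451 across 12333 genes after overexpression; genes are not independent replicates. When genes were ranked by GC content and split into 10 equal classes, RFK fell in the lowest class, whose median log2 fold change after depletion was -0.11, and PRTFDC1 and HPRT1 in the next, with a median of -0.067. In its class of 1255 genes, PRTFDC1 had the lowest value of all, RFK had 1 gene below it and HPRT1 had 6. PRTFDC1 and RFK were chosen for their low values in this comparison, so their low ranks were given by the choice. After overexpression the medians of the same classes were 0.025 and 0.022. Removing the trend with GC content and transcript length left log2 differences of -1.12 for PRTFDC1, -0.96 for RFK and -0.58 for HPRT1 after depletion. The same step left 0.083 for PRTFDC1 and 0.068 for RFK after overexpression.

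The libraries themselves differed in this property. The median deviation of the class lowest in GC, less that of the class highest in GC, was 0.32 and 0.33 on the log2 scale in siControl, and 0.17 and -0.27 in siUPF1. It was 0.0036 and -0.38 in MYC and -0.24 and 0.085 in MYC-UPF1. In all 4 groups the library with the lower value was also the lower for RFK and for HPRT1. PRTFDC1 ran the same way in 3 of the 4 groups but not in siUPF1, where its libraries were nearly equal. Some gaps were small, at 13.05 and 13.15 FPKM for HPRT1 in siControl and 7.29 and 7.21 FPKM for RFK in MYC. The share of all genes that ran this way was not computed. The part of GC content in the levels of RFK and HPRT1 within a group was not tested.

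The nearest genes on the chromosome were read to see whether the difference extended beyond each gene. Around PRTFDC1, 3 of the 6 nearest listed genes were expressed enough to be tested. KIAA1217, ARHGAP21 and THNSL1 had log2 fold changes from -0.037 to 0.093 after depletion, and in limma 0 of the 3 passed even the unadjusted threshold. ENKUR, the closest at 29.4 kb, was under the minimum in all libraries. Around RFK, 5 of 6 were tested and 1 passed, which is near the 21.5% of all genes that passed after depletion (5.51% lower). This was PCSK5, a proprotein convertase gene that ends 22.6 kb before RFK and is read toward it from the other strand (78505560 to 78977891). PCSK5 was at 3.15 and 3.10 FPKM in siControl and at 1.97 and 2.04 FPKM in siUPF1, a clear gap between the groups. Its log2 fold change was -0.46 with a standard error of 0.0922, which passed the unadjusted threshold alone (limma adjusted p = 0.0835). It passed the adjusted one under 4 of 13 alternatives, where adjusted p ranged from 0.00171 to 0.303. Like RFK, PCSK5 was low in the plasmid cells as well, at 1.74 and 1.90 FPKM in MYC and at 1.86 and 1.75 FPKM in MYC-UPF1. The fold change after overexpression was -0.0094 (limma adjusted p = 1.00), and it changed sign without MYC replicate 2 (0.033) or MYC-UPF1 replicate 2 (0.019). Over the 8 libraries its log2 level correlated with that of RFK at 0.907, which placed it 382nd of the other genes. GCNT1, 25.3 kb on the other side of RFK, was at 3.22 FPKM in siControl and 3.28 FPKM in siUPF1 on average, with a log2 fold change of 0.019. The pseudogene RPSAP9, at 4.18 kb, may share reads with its parent ribosomal protein gene. OSTF1 and NMRK1, at 1238 and 1297 kb, had log2 fold changes of 0.018 and 0.17.

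**Figure D1:**
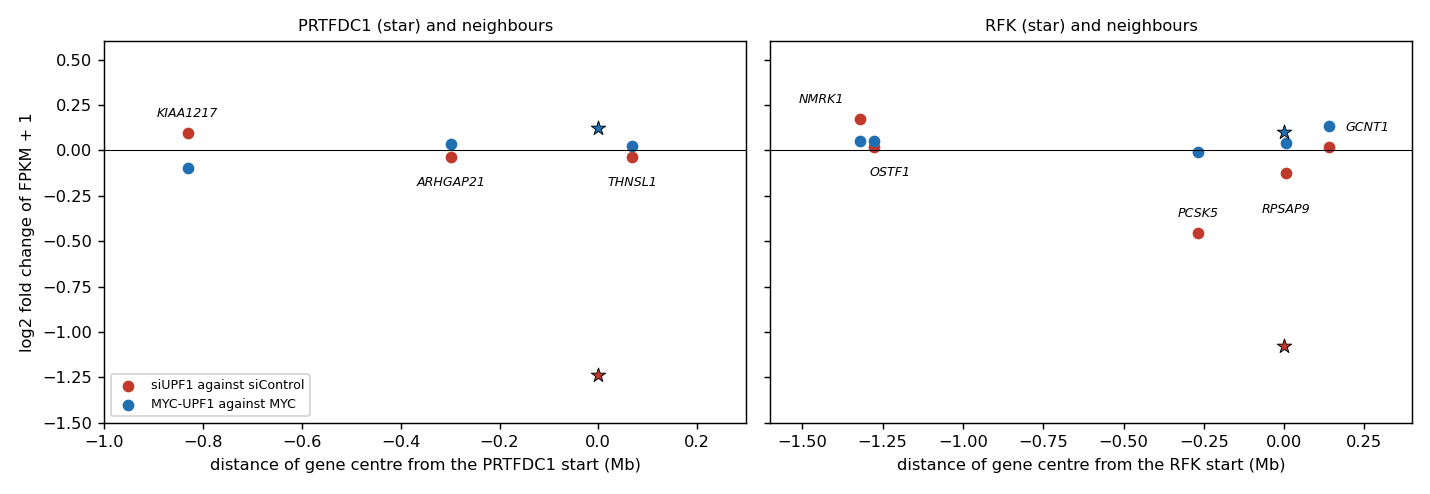
Log2 fold change of FPKM + 1 for PRTFDC1 and RFK (stars) and those of their 6 nearest listed genes that were tested (circles), against the distance of each gene's centre from the start of PRTFDC1 or RFK in Mb, with lower chromosome positions to the left. Next to RFK after depletion (red) PCSK5 is the lowest neighbour (-0.46). Next to PRTFDC1 the neighbours lie between -0.037 and 0.093 after depletion and between -0.098 and 0.037 after overexpression.

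Other genes of purine metabolism were read next. The lists held 43 genes of salvage, de novo synthesis, breakdown and other phosphoribosyltransferases, of which 37 were listed and 34 tested after depletion. By limma with an unadjusted threshold of 0.05, 6 of the 34 (17.6%) were higher and 2 (5.88%) lower, against 16% and 5.51% of all genes, and 0 passed the adjusted threshold. Over all genes this split was 2162 to 746, but 1417 to 1408 with quantile normalization, 1602 to 1271 with median centring and 1475 to 1484 with the GC and length trend removed. The median of the 34 was -0.046, where that of all genes was 0.057. Besides HPRT1, the gene that fell was PAICS, a de novo synthesis enzyme, from 90.6 and 95.5 to 80.7 and 69.9 FPKM (log2 fold change -0.31, limma adjusted p = 0.176). Genes that rose included ADA, the adenosine deaminase, from 1.03 and 1.03 to 1.52 and 1.49 FPKM (0.31), and DGUOK, which phosphorylates purine deoxynucleosides in mitochondria, from 40.5 and 44.95 to 53.2 and 52.3 FPKM (0.30). The nucleotidases NT5E, at the cell surface, and NT5C2, in the cytosol, rose with 0.34 and 0.27. QPRT, a phosphoribosyltransferase of NAD synthesis, rose from 65.8 and 68.5 to 88.4 and 103 FPKM (0.50, limma adjusted p = 0.0844) and passed the unadjusted threshold under all 14 alternatives and the adjusted one under 4. The calls of the others were weaker. Without siControl replicate 1 ADA (0.31), DGUOK (0.23), PAICS (-0.34), NT5E (0.26) and NT5C2 (0.21) did not pass, and without siControl replicate 2 ADA (0.31), DGUOK (0.37), PAICS (-0.27) and NT5C2 (0.33) did not. PAICS did not pass without siUPF1 replicate 2 (-0.20), nor NT5C2 without siUPF1 replicate 1 (0.20) or with the replicate block, nor ADA with quantile normalization (0.22) or the GC trend removed (0.15). With a pseudocount of 0.1 ADA was at 0.51. After overexpression 0 of 34 were higher and 1 (2.94%) lower, against 0.619% and 0.807% of all genes. This was ADSL, a de novo enzyme, from 39.1 and 40.5 to 34.5 and 34.9 FPKM (-0.19, limma adjusted p = 1.00), a call lost under 9 of 14 alternatives, among them the removal of any 1 library, which gave from -0.22 to -0.17.

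For flavins, 84 genes of riboflavin uptake, cofactor supply and flavoproteins were set down, of which 79 were listed and 77 tested after depletion. At the unadjusted threshold 12 (15.6%) were higher and 9 (11.7%) lower, against the same 16% and 5.51%, and 0 passed the adjusted one. Their median was 0.11, against 0.057 for all genes. SLC25A32, which carries folate and FAD into mitochondria, fell from 8.66 and 9.33 to 7.20 and 5.90 FPKM (-0.41, limma adjusted p = 0.133), and BLVRB, a flavin reductase, rose from 47.9 and 48.1 to 59.4 and 63.6 FPKM (0.35). Among mitochondrial flavoproteins, 6 of 33 rose and 3 fell. PRODH, the proline dehydrogenase, rose from 0.391 and 0.636 to 1.24 and 1.61 FPKM (0.68, limma adjusted p = 0.0804) and the short-chain acyl-CoA dehydrogenase ACADS with 0.45, while the acyl-CoA dehydrogenases ACAD11 and ACADSB fell by 0.37 and 0.36 on the log2 scale. Outside mitochondria 5 of 40 rose and 5 fell. FMO1, a flavin monooxygenase, fell from 1.84 and 1.499 to 0.746 and 0.622 FPKM (-0.66, limma adjusted p = 0.0731), and DPYD, which breaks down pyrimidines, from 11.3 and 10.9 to 7.998 and 6.43 FPKM (-0.56, limma adjusted p = 0.0835). The spermine oxidase SMOX and the coenzyme A synthesis enzyme PPCDC rose with 0.42 and 0.38. RFK is also known to bind TNF receptor 1 and a NADPH oxidase subunit. Of 10 genes of that group 4 were tested, and at the unadjusted threshold 2 of the 4 were higher after depletion, against 16% of all genes, while 0 passed the adjusted one. They were CYBA, that subunit (0.38, limma adjusted p = 0.148), and the receptor adaptor TRADD (0.36, limma adjusted p = 0.200). After overexpression 0 of the 4 passed even the unadjusted threshold in limma. DPYD and SMOX passed the unadjusted threshold under all 14 alternatives, and PRODH, ACADS and FMO1 under all 13 in which they were tested. Their size was less stable than the call. With the GC and length trend removed ACADS was at 0.20, PRODH at 0.44, SMOX at 0.21 and BLVRB at 0.17, and with a pseudocount of 0.1 PRODH was at 1.33 and FMO1 at -1.17. Without siUPF1 replicate 2 ACADS was at 0.28, CYBA at 0.25 and ACADSB at -0.24. The adjusted threshold was passed by DPYD under 5 of 14 alternatives, by FMO1 under 5 of 13 and by PRODH under 4 of 13. Without siControl replicate 1 BLVRB (0.35), PPCDC (0.31), CYBA (0.33) and TRADD (0.24) did not pass. Without siControl replicate 2 BLVRB (0.35), SLC25A32 (-0.36), ACAD11 (-0.31) and ACADSB (-0.34) did not. ACADSB was also lost in the fit of all 8 libraries, TRADD without siUPF1 replicate 2 (0.22), and CYBA (0.11) and TRADD (0.10) with the GC trend removed. TRADD was lost as well without a minimum (0.36), with quantile normalization (0.28) and with median centring (0.32). After overexpression 0 of the 74 flavin genes tested passed an unadjusted p of 0.05, against 1.43% of all genes, and 0 passed the adjusted one.

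**Figure D2:**
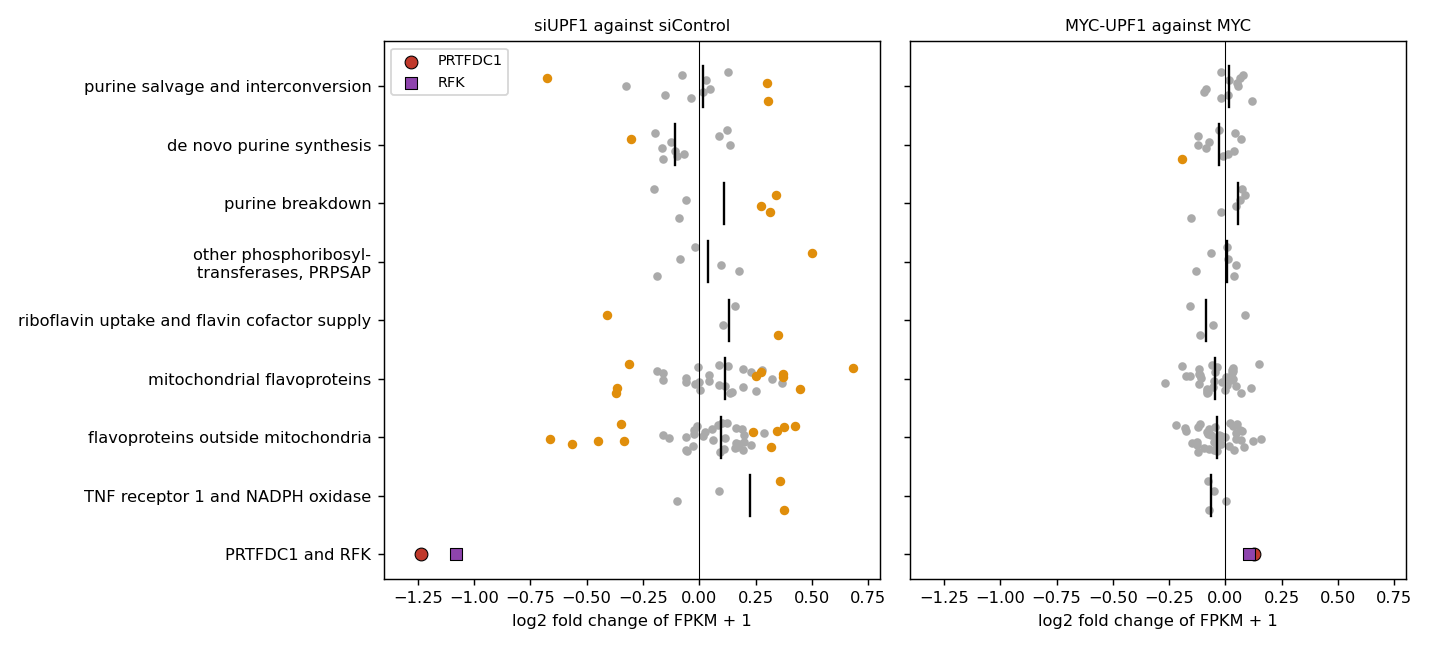
Log2 fold change of FPKM + 1 for each tested gene of the pathway lists (points, orange where the unadjusted limma p is under 0.05), with a bar at the median of each list, and for PRTFDC1 and RFK in the lowest row, which are drawn without a test. After depletion PRTFDC1 and RFK lie to the left of every pathway gene, the lowest of which is HPRT1 at -0.68. That position was given by the choice of PRTFDC1 and RFK. After overexpression PRTFDC1 and RFK lie among the pathway genes.

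The genes whose levels ran most like those of PRTFDC1 and RFK were found by the Pearson correlation of log2(FPKM + 1) over the 8 libraries, among 13412 genes. The libraries are 4 groups of 2, so such a correlation mostly follows the group means and is a description. For PRTFDC1 the closest included ERP44, a chaperone of the secretory pathway (0.977), G3BP2, a stress granule protein (0.972), ISM1, a secreted protein (0.968), and the transcription factor YY1 (0.966). ERP44 was at 19.4 and 21.7 FPKM in siControl, at 10.4 and 9.93 FPKM in siUPF1 and between 18.5 and 20.1 FPKM in the 4 plasmid libraries. Like PRTFDC1, it was low in siUPF1 alone. HPRT1 ranked 53rd with 0.888. For RFK the closest were POLR3G, a subunit of RNA polymerase III (0.993), MTO1, a mitochondrial tRNA-modifying enzyme (0.992), the membrane glycoprotein GPNMB (0.989), the small GTPase RAP1B (0.987) and the transcription factor KLF3 (0.987). POLR3G was at 8.63 and 8.99 FPKM in siControl, at 6.34 and 4.74 FPKM in siUPF1 and between 4.60 and 5.69 FPKM in the plasmid libraries, so it too was high in siControl alone. PRTFDC1 and RFK correlated with each other at 0.467. RFK ranked 1167th among the genes most like PRTFDC1, and PRTFDC1 ranked 4390th among those most like RFK.

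**Figure D3:**
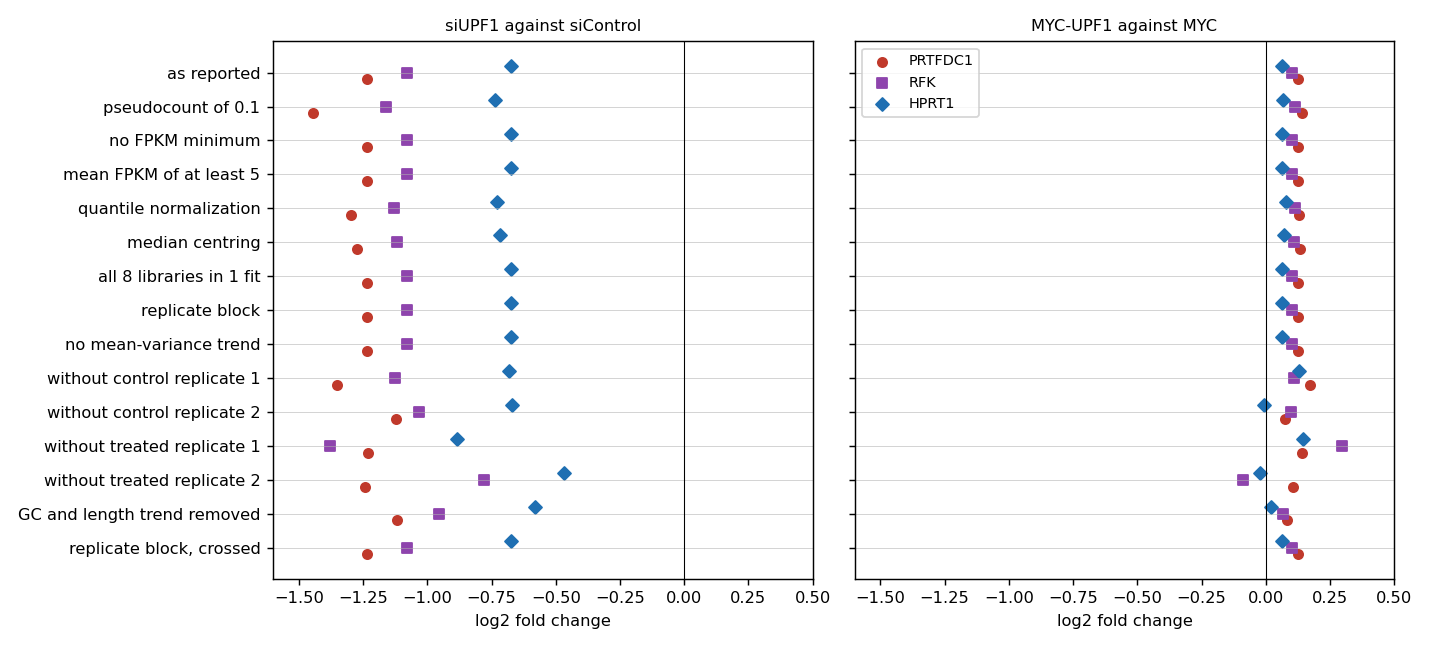
Log2 fold change of PRTFDC1, RFK and HPRT1 as reported and under each of 14 alternatives (rows), with control meaning siControl or MYC and treated meaning siUPF1 or MYC-UPF1. After depletion no value of the 3 genes is above -0.47, and after overexpression RFK crosses 0 without treated replicate 2 (-0.088) and HPRT1 without control replicate 2 (-0.0052) or treated replicate 2 (-0.022).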

How the data were processed

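Total RNA of Huh7 cells was made into stranded mRNA libraries. Per the labels and the methods, the authors trimmed reads (Trimmomatic 0.38), aligned them to hg19 with HISAT2 2.1.0, assembled transcripts with StringTie 1.3.4d on NCBI annotation, and deposited FPKM per gene and library. How the listed genes were chosen is not given in the sources used here. The series and single-library files held the same values (0 differences). All else was computed here. The siUPF1 group was fitted against siControl, and MYC-UPF1 against MYC, by limma 3.58.1 (R 4.3.3; lmFit, eBayes with trend). Values entered as log2(FPKM + 1), and a gene needed a mean of at least 0.5 FPKM over the 4 libraries, with Benjamini-Hochberg adjustment over all of them. In a test on simulated data, 200 genes were changed by 1 on the log2 scale. The depletion fit of 13535 genes recovered 100% of them at the adjusted threshold and the overexpression fit of 13251 genes 99.5%. The simulated noise was independent between libraries and depended on the mean level alone, with no GC shift between libraries. These shares test the code and are not the share of real changes that would be found. In the real depletion data 5 genes passed. The genes and lists were chosen with earlier results of these data known. Named genes were PRTFDC1, RFK, HPRT1, APRT, FLAD1 and UPF1, the 5 best correlates and 3 nearest listed genes on each side of PRTFDC1 and RFK, and in each list the 2 genes of lowest p in each direction; 1 of these genes is not reported here. Positions, transcripts and GC content came from GENCODE release 44 on GRCh37 (15741 genes matched), older symbols from RefSeq, and alignments from Biopython 1.88. Alternatives were another pseudocount, other minimums, normalizations and fits, a replicate block, loess removal (span 0.5) of the GC and length trend, and each library left out; where that left 1 library in a group, it was assumed to vary like the others. The replicate numbers did not pair the samples. Figures were drawn with matplotlib 3.10.9.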

Additional observations from a re-analysis of the deposited data

Results flagged for a closer look

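PRTFDC1 stood out because the libraries of the 2 comparisons moved in opposite directions: both siUPF1 libraries were below both siControl libraries and both MYC-UPF1 libraries were above both MYC libraries, where the log2 fold change was 0.12. The depletion values chose the gene, so that side of the pattern was given by the choice and the difference was not tested. Of all genes, 8.88% were higher without overlap after overexpression. The share of genes with opposite directions in both comparisons was not computed. The median of the GC class of PRTFDC1 was -0.067 after depletion and 0.022 after overexpression. FLAD1 stood out for the reverse, with both siUPF1 libraries above siControl and both MYC-UPF1 libraries below MYC, where the log2 fold change was -0.055. The gap of FLAD1 after overexpression was very narrow, between 32.885 FPKM in MYC replicate 1 and 32.853 FPKM in MYC-UPF1 replicate 1. Of all genes, 37.5% were higher without overlap after depletion and 11.8% lower after overexpression. The median of the GC class of FLAD1 was 0.14 after depletion and -0.059 after overexpression. With the GC and length trend removed FLAD1 was at -0.041 and -0.014, so the opposite signs were not kept. A limma test of the difference between its effects, over all 8 libraries, gave 0.16 (standard error 0.118, adjusted p = 0.514). The same test gave -0.74 for HPRT1 (standard error 0.192, adjusted p = 0.170) and 0.13 for APRT (adjusted p = 0.586), neither past the adjusted threshold.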

How the results depend on the processing

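With 2 libraries a group and no read numbers, small changes could not be told from the spread. After depletion PRTFDC1 and RFK kept their sign under all 14 alternatives. PRTFDC1 moved past its replicate spread with a pseudocount of 0.1 (-1.44). Leaving out each library gave from -1.35 to -1.12 for PRTFDC1, from -1.38 to -0.78 for RFK and from -0.88 to -0.47 for HPRT1, whose limma adjusted p ranged from 6.77e-10 to 0.198 over all alternatives. After overexpression, with each library left out, RFK ranged from -0.088 to 0.30, HPRT1 from -0.022 to 0.15, PRTFDC1 from 0.076 to 0.17 and PCSK5 from -0.052 to 0.033. With the GC and length trend removed PCSK5 was at 0.031 there, and after depletion APRT was at -0.17 and FLAD1 at -0.041; the cause was not tested. The count of genes passing an unadjusted p of 0.05 after depletion was 2908, 1862 at a mean FPKM of at least 5, and from 1435 to 5896 with each library left out. After overexpression it was 189, 409 without a minimum, 49 at a mean FPKM of at least 5, 412 with the GC and length trend removed, 1227 with the crossed replicate block, and from 220 to 778 with each library left out. Fewer genes were tested at the higher minimum. The replicate block gave 2586 calls after depletion and 170 after overexpression. Deviations of same-numbered libraries correlated at -0.13 and -0.57, so the numbers crossed as a block were added after seeing the data, with 3102 calls after depletion. Under either block no call changed of HPRT1, APRT or FLAD1 in both comparisons, or of PRTFDC1 or RFK after overexpression; after depletion the latter pair had no test.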
